A study of Homo sapiens with 44 samples.

Results

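Among 407383 accessible regions (peaks) measured in colon fibroblasts, 2199 were moved in opposite directions by IL-1β and IL-13. In 1099 of them coverage was higher with IL-1β and lower with IL-13 than in unstimulated cells, and these are called the IL-1β-raised set. In the other 1100 coverage was higher with IL-13 and lower with IL-1β, and these are called the IL-13-raised set. Coverage of a peak is the sum of read bases over it, given per megabase (Mb) of all coverage in that library and taken as log2(coverage per Mb + 0.5). A peak was a member where its mean coverage over the unstimulated, IL-1β and IL-13 libraries was at least 3 per Mb and the group means on that log2 scale lay at least 0.6 above unstimulated for one cytokine and at least 0.6 below it for the other. Of all peaks, 78361 passed the floor of 3 per Mb, and the sets made up 1.402% and 1.404% of those. Members were thus selected on the coverage of these 12 libraries, which is given as a description with no test.

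The cells were Ccd18-Co, a fibroblast line from human colon, and the assay was ATAC-seq, in which a transposase cuts DNA that is not packed into nucleosomes and adds sequencing adaptors to it. The 11 groups of 4 libraries were unstimulated cells and cells given IL-1β at 0.1 ng/ml or TNF, OSM (oncostatin M), TGF-β1, IFNγ, IFNα, IL-17A, IL-22, IL-6 or IL-13 at 10 ng/ml each, all in serum-free medium and, per the study's methods, for 1 day. The dose of IL-1β is that of the labels and methods, and a figure legend of the study gives another. It was lower than that of IL-13, and all groups come from a single cell line in culture. No label says that the 4 libraries of a group came from separate cultures, so the p-values measure the spread between these libraries, which may be technical. In such bulk libraries a change in the share of cells with an open site and a change of the site in each cell cannot be told apart. The plots name the cytokines by their gene symbols (IL1B, IFNA, IFNG, TGFB1).

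IL-1β is an inflammatory cytokine whose receptor signals through NF-κB and the MAP kinases, the latter acting on AP-1 factors, and in fibroblasts it is known to turn on neutrophil chemokines, matrix metalloproteinases and prostaglandin synthesis. IL-13 is a type 2 cytokine that signals through IL-4Rα and STAT6 and is known in fibroblasts for eotaxin chemokines and for matrix production. NF-κB, AP-1 and STAT6 each bind a short DNA sequence, and fibroblasts also use TEAD factors and, at contractile genes, serum response factor, which binds the CArG box.

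The sequences below are shown because each holds, within a member named in what follows, the string that differs most between the sets or the one of the pathway concerned. They are windows of 120 bases from the hg38 reference, plus strand, and only the named string on either strand is in capitals. A match describes the letters of the window and does not show that a factor binds there. The first 6 windows are from IL-1β-raised members. The capitals mark AP-1 strings (TGACTCA or its reverse complement) at ARID5A, TBX3, IL11 and CXCL8, and NF-κB strings at LIF and COL7A1.
ARID5A (chr2:96556985-96557104): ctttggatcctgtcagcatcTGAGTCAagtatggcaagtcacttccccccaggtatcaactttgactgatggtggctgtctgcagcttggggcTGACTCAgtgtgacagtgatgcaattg
TBX3 (chr12:115156157-115156276): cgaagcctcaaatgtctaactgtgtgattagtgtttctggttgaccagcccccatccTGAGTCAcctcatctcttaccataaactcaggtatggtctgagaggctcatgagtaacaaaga
IL11 (chr19:55372898-55373017): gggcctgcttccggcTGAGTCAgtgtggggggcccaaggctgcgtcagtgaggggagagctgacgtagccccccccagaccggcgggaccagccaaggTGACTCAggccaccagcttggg
LIF (chr22:30250868-30250987): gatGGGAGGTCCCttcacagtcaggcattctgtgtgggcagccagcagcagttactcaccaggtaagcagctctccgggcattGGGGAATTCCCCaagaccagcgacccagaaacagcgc
COL7A1 (chr3:48595435-48595554): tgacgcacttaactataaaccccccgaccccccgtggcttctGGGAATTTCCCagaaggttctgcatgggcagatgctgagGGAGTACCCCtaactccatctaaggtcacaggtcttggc
CXCL8 (chr4:73740375-73740494): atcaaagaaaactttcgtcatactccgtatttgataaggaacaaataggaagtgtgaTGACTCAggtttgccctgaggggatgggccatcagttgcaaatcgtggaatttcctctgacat
The other 5 windows are from IL-13-raised members. The capitals mark the STAT6 string (TTC and GAA with 4 bases between) at LOC105376480, CCL26 and WASF3, the TEAD string (CATTCCA or its reverse complement) at LOC102724357, and the CArG string at MYH11.
LOC105376480 (chr10:30755598-30755717): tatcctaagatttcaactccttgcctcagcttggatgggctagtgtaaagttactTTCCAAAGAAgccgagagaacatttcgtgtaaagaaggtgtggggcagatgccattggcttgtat
LOC102724357 (chr6:169073428-169073547): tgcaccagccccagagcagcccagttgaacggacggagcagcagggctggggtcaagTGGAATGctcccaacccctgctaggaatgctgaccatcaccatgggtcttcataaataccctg
CCL26 (chr7:75772255-75772374): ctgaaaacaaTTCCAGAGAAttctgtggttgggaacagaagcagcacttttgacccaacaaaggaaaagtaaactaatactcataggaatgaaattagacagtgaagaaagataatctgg
MYH11 (chr16:15835416-15835535): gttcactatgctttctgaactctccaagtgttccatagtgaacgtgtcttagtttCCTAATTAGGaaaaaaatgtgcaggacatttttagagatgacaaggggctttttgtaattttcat
WASF3 (chr13:26423649-26423768): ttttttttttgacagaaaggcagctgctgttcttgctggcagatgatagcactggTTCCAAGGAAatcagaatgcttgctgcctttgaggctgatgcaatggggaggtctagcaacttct

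Before the results, libraries that stood apart are named. The balance of the sets, meaning the mean log2 coverage of the IL-1β-raised set minus that of the IL-13-raised set, lay between -0.71 and -0.44 in replicates 1 to 3 of IL-6, while the library labelled IL-6 replicate 4 was at -1.85, inside the range of the IL-13 libraries (-2.14 to -1.78). That library was also the shallowest of the 44, with a total coverage of 148.8 Mb against up to 823 Mb. Results for IL-6 against IL-22 are given with and without it. Replicate 4 of the unstimulated cells was at 0.16 against -0.39 to -0.22 for the other 3, and without it the IL-13-raised set would hold 945 peaks. Group mean totals ran from 401 Mb with IL-13 to 553 Mb with OSM. The fibroblast label was met by the promoter peaks of 10 of 10 fibroblast markers, which passed the floor with a median of 14.5 per Mb, against 1 of 8 epithelial, 1 of 6 leukocyte and 0 of 5 endothelial markers.

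The sets were nearly equal in size and similar in coverage. A typical IL-1β-raised member was at 4.41 per Mb in unstimulated cells, 8.89 with IL-1β and 2.23 with IL-13 (medians of group means over the members). A typical IL-13-raised member was at 5.03, 2.32 and 9.68 in the same order. Mean coverage over the 12 libraries ran from 3.00 to 35.9 per Mb in the IL-1β-raised set, so most members were weak peaks, worth a median of 29.4 reads of 75 bases per library there and 30.4 in the IL-13-raised set.

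The differences that chose the members had medians of 0.89 with IL-1β and -0.82 with IL-13 on the log2 scale in the first set, and of -0.93 and 0.80 in the second. Both differences were past 1 in size for 124 IL-1β-raised and 111 IL-13-raised members. In a limma fit across all peaks (adjusted p under 0.05), 763 IL-1β-raised members were called raised with IL-1β beside 1.72% of all tested peaks, and 562 were called lowered with IL-13 beside 0.88%. Of the IL-13-raised set, 801 were called lowered with IL-1β beside 1.79%, and 614 raised with IL-13 beside 0.73%. These counts come from the contrasts that chose the peaks, and nothing is read from them. At the edge of the rule, the peak at FBXO36 was just inside at 0.60002 with IL-1β and that at N4BP1 just outside at 0.59978. On the other side the PIEZO1 peak was just inside at -0.60011 with IL-1β and the FLNA peak just outside at -0.59998.

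**Figure D1:**
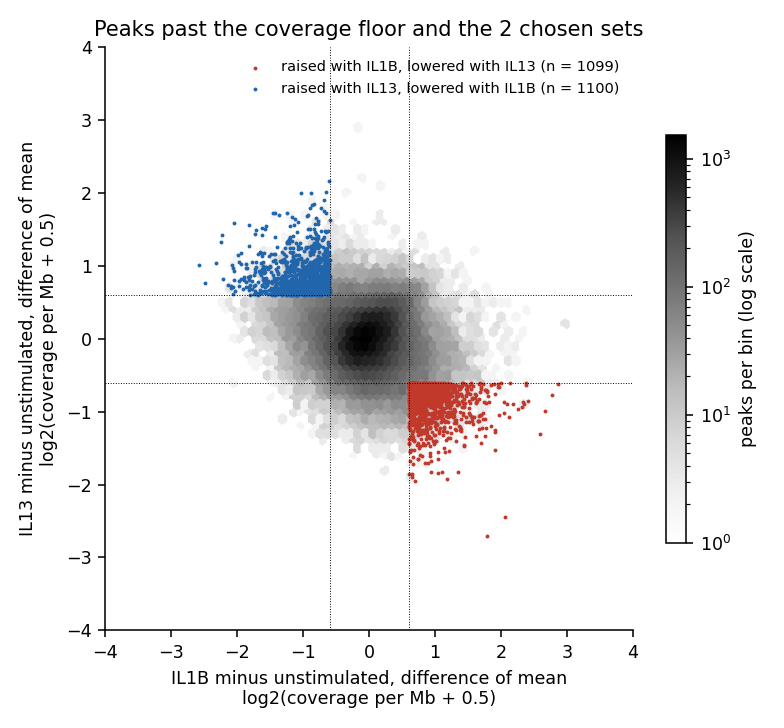
Difference from unstimulated with IL1B (x axis) and with IL13 (y axis), both on the log2(coverage per Mb + 0.5) scale, for the 78361 peaks past the floor (grey, log colour scale of peaks per bin). Red points are the 1099 IL-1β-raised members and blue points the 1100 IL-13-raised members, cut off by the dotted lines at 0.6 and -0.6.

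Named members are the 10 ranked first in each set by the weaker of their differences and those of genes in 8 lists, 29 and 22 peaks in all. Of all peaks past the floor, 1.402% were IL-1β-raised and 1.404% IL-13-raised. Of 224 peaks past the floor at genes of the IL-1 and NF-κB response, 17 were IL-1β-raised (7.59%) and 1 IL-13-raised (0.446%). The 17 lay at 10 of the 41 genes of that list. For the prostaglandin pathway the counts were 9 (7.32%) and 1 (0.813%) of 123, but 8 of the 9 lie at PTGS2 alone. For growth factors they were 4 (2.61%) and 1 (0.654%) of 153. Matrix and contractile genes went the other way, with 2 IL-1β-raised (0.608%) and 29 IL-13-raised peaks (8.815%) of 329. Of the 29, however, 16 lie at THBS1 and 7 at TAGLN. The type 2 and STAT6 response held 2 (1.59%) and 3 (2.38%) of 126. No member lay at the genes of AP-1 factors (91 peaks past the floor), C/EBP factors (36) or steroid and circadian genes (53). In lists this small the shares of all peaks amount to few members. Nothing is read from the growth factor, type 2, AP-1, C/EBP and steroid counts.

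Chemokine genes stood among the IL-1β-raised members. The member at CXCL8, which codes for the neutrophil chemokine IL-8, covers the start of the gene (chr4:73740318-73740818). Its coverage was 3.09, 2.11, 2.11 and 1.84 per Mb in the unstimulated libraries, 18.0, 13.2, 15.2 and 18.9 with IL-1β, and 0.973, 0.626, 0.457 and 0.456 with IL-13. All IL-1β libraries lay above and all IL-13 libraries below the unstimulated ones. At CXCL2, another neutrophil chemokine, the member at chr4:74097497-74097997 was at 1.09, 0.380, 0.831 and 1.46 unstimulated, 8.38, 10.6, 7.55 and 9.47 with IL-1β, and 0, 0.384, 0.230 and 0.825 with IL-13, where the IL-13 and unstimulated libraries overlapped. The member 32.8 kb from CXCL1 was at 2.75, 2.19, 1.97 and 3.98 unstimulated, 6.48, 5.64, 5.81 and 5.37 with IL-1β, and 0.785, 0.934, 2.30 and 1.57 with IL-13, again with an overlap only on the IL-13 side.

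Cytokine genes of the same list had members too. IL11, a cytokine of the IL-6 family made by stromal cells, has a member 2.48 kb from its start site, outside any gene, whose 2 AP-1 strings are printed above. Its coverage was 5.15, 4.93, 3.63 and 5.95 unstimulated, 14.9, 16.4, 18.8 and 19.3 with IL-1β, and 2.61, 1.24, 2.28 and 2.05 with IL-13. The 3 groups did not overlap. LIF, of the same family, has a member 4.17 kb from its start site, at 4.34, 3.95, 4.04 and 4.31 unstimulated, 12.3, 13.8, 11.5 and 11.2 with IL-1β, and 3.10, 2.21, 1.02 and 1.97 with IL-13, also without overlap. CSF3, the granulocyte colony-stimulating factor, has a member at its start site with 8.25 to 12.8 per Mb in the IL-1β libraries, 0.789 to 2.61 unstimulated and 0.255 to 1.71 with IL-13. The last 2 ranges overlap. At IL33, an alarmin of the IL-1 family, the promoter-class member was at 2.36 to 4.78 unstimulated, 11.3 to 12.4 with IL-1β and 0.488 to 1.45 with IL-13.

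The other members of the list sit at a protease and at regulators of the NF-κB pathway. At MMP3, which codes for the stromelysin that degrades matrix proteins, the member near the start site was at 5.55, 4.94, 5.90 and 5.26 unstimulated, 15.7, 13.7, 16.1 and 14.1 with IL-1β, and 2.13, 0.738, 2.97 and 2.81 with IL-13. IRAK2, a kinase of the IL-1 receptor pathway, has the strongest member of the list, an intronic peak at 18.8 to 26.1, 38.4 to 45.2 and 12.1 to 17.0 per Mb in that order. At TNFAIP3, the deubiquitinase A20 that restrains NF-κB, the member 42.8 kb away overlapped between IL-1β (11.5 to 21.3) and unstimulated (6.99 to 13.9), while its IL-13 libraries (4.16 to 6.70) lay below. One member of the list ran opposite to the others. It lies in an intron of ICAM1, which codes for a leukocyte adhesion molecule, and was at 2.07 to 3.83 unstimulated, 0.381 to 1.80 with IL-1β and 4.81 to 8.01 with IL-13.

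Prostaglandin, growth factor and matrix genes also had IL-1β-raised members. PTGES, the enzyme that makes prostaglandin E2 from the product of cyclooxygenase, has a member at 9.23 to 11.3 unstimulated, 23.0 to 34.9 with IL-1β and 2.87 to 6.12 with IL-13. AREG, an epidermal growth factor receptor ligand, GREM1, an antagonist of bone morphogenetic proteins, and FGF7, a growth factor for epithelium, each had an IL-1β-raised member, with IL-13 differences of -1.55, -1.95 and -0.79. The promoter-class member of COL7A1, the collagen of anchoring fibrils, was the strongest named peak at 28.3 to 33.4 unstimulated, 50.3 to 60.3 with IL-1β and 16.0 to 18.7 with IL-13. The LOXL2 member, at a collagen cross-linking enzyme, had differences of 1.0 and -0.83.

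Of the type 2 list, IL4R and SOCS3 were on the IL-1β side. IL4R codes for the receptor chain that IL-13 itself uses, and its intronic member was at 8.11, 8.13, 7.91 and 10.8 unstimulated, 13.3, 16.2, 17.6 and 16.0 with IL-1β, and 5.23, 3.60, 2.89 and 5.02 with IL-13. SOCS3, a feedback inhibitor of cytokine receptors, was at 3.30 to 5.91, 7.54 to 10.4 and 1.91 to 3.58 per Mb. The eotaxins CCL26 and CCL11 lay on the IL-13 side, while CCL24, the remaining eotaxin of the list, had no member in either set. CCL26, or eotaxin-3, has a member in its intron (chr7:75772121-75772621) at 6.10, 8.83, 8.28 and 8.79 unstimulated, 5.47, 4.18, 4.04 and 4.17 with IL-1β, and 31.1, 24.1, 21.5 and 25.8 with IL-13. CCL11, or eotaxin-1, has a promoter-class member at 7.64, 9.46, 9.25 and 4.86, then 1.76 to 2.52, then 17.9, 10.7, 15.5 and 15.7 in the same order. Both eotaxin members had no overlap between these groups, and the CCL26 window printed above holds the STAT6 string. DPP4, a surface peptidase, was at 12.1 to 22.2 unstimulated, 8.14 to 13.0 with IL-1β and 24.4 to 32.5 with IL-13.

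Of the 8 lists, matrix and contractile genes had the most named IL-13-raised members, 6 of 22. COL1A1, the main chain of type I collagen, has a member over coding exons at 16.0, 10.4, 10.6 and 11.0 unstimulated, 6.61, 8.92, 7.12 and 4.17 with IL-1β, and 21.4, 19.0, 19.8 and 18.8 with IL-13. FN1, fibronectin, has one at 4.50, 3.17, 4.58 and 4.34, then 1.13, 1.49, 2.80 and 1.93, then 7.42, 10.1, 4.78 and 8.53. In both, the 3 groups did not overlap. MYH11, the smooth muscle myosin heavy chain, has an intronic member with the CArG string printed above, at 2.31 to 4.46 unstimulated, 1.62 to 1.79 with IL-1β and 4.49 to 7.46 with IL-13. The COL5A1 member, at a type V collagen gene, had differences of -1.0 with IL-1β and 1.05 with IL-13, and the member at PTGIS, which makes prostacyclin, had -0.78 and 1.30. SMTN, a smooth muscle cytoskeletal gene, ranked just behind CNGA3 in its set with -1.57 and 1.55.

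The peaks ranked first were mostly far from genes. The IL-13-raised member named for WASF3, 27.5 kb from the nearest protein-coding start site (CDK8), was at 4.77, 7.0, 6.72 and 4.49 unstimulated, 1.57, 0.787, 0.961 and 0.764 with IL-1β, and 23.3, 16.7, 16.8 and 16.0 with IL-13. The one named for LOC102724357 was at 10.6, 12.8, 11.5 and 10.4, then 1.94, 0.516, 3.49 and 3.57, then 34.6, 32.7, 27.7 and 30.4. On the IL-1β side the member named for TBX3, 472 kb from that gene, was at 7.72, 5.73, 5.83 and 7.88, then 22.7, 16.9, 21.8 and 15.5, then 2.73, 1.63, 2.36 and 1.87. None of these 3 had overlapping groups. Over all named members, the IL-1β libraries were apart from the unstimulated ones in 28 of 29 IL-1β-raised and 19 of 22 IL-13-raised peaks, and the IL-13 libraries in 23 of 29 and 22 of 22. These libraries chose and ranked the members, so separation was favoured in advance. The share of all peaks with groups apart was not counted, and nothing is read from these counts.

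**Figure D2:**
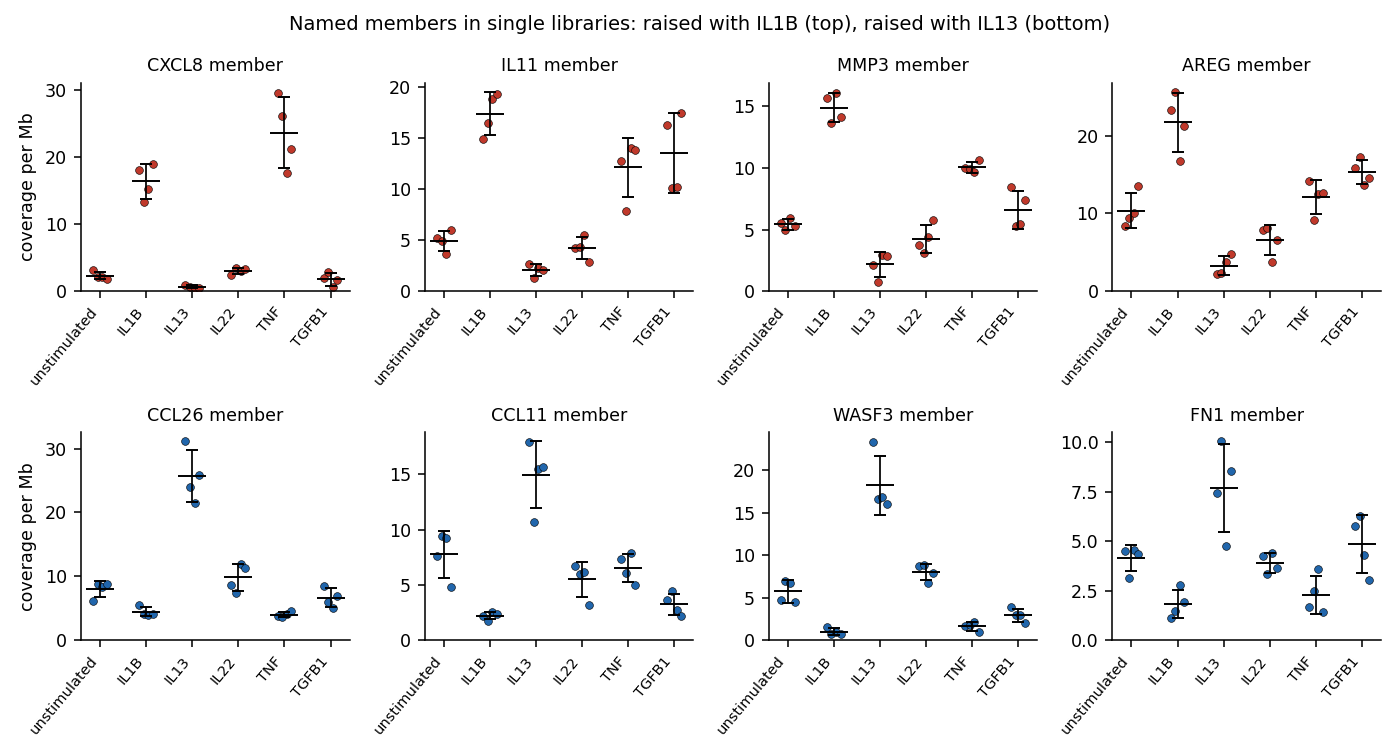
Coverage per Mb of 8 named members (y axis, linear from 0) in single libraries of 6 groups, with the group mean and SD (n = 4) as bars. In the top row the IL1B libraries of CXCL8 sit between 13.2 and 18.9 and its TNF libraries between 17.6 and 29.5, above the IL22 libraries at 2.37 to 3.42, and in the bottom row the IL13 libraries of CCL26 sit between 21.5 and 31.1.

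Several genes held more than 1 member. Members were assigned to 948 genes in the IL-1β-raised set and 912 in the IL-13-raised set, of 18737 genes with a peak past the floor, and 89 genes had both kinds. Most members had no other member of their set close by. Within 10 kb, 89 IL-1β-raised members (8.10%) had another of their set and 9 (0.819%) had one of the other set. For the IL-13-raised set the counts were 139 (12.6%) and 9 (0.818%). The share for peaks past the floor was not counted.

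PTGS2, which codes for the inducible cyclooxygenase-2, had the most IL-1β-raised members, 8 of its 10 peaks past the floor. The first of them lies 9.99 kb from the start site, past the end of the gene (chr1:186670181-186670681), and ranked first in its set. Its coverage was 6.08, 11.6, 8.64 and 10.7 unstimulated, 33.3, 40.3, 41.0 and 42.1 with IL-1β, and 0.971, 0.938, 1.75 and 1.44 with IL-13. All 6 peaks past the floor inside the gene were higher with IL-1β and lower with IL-13 in sign. That count includes members, whose signs the rule fixed. The peak over the start site was no member, with group means of 20.5 unstimulated, 21.4 with IL-1β and 19.2 with IL-13.

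THBS1, which codes for the matrix glycoprotein thrombospondin-1, had the most IL-13-raised members, 16 of 43 peaks past the floor. Of these, 13 lie inside the gene, and all 26 peaks past the floor there were lower with IL-1β and higher with IL-13 in sign. The member at the end of the gene (chr15:39599041-39599541) was at 6.10, 9.36, 6.98 and 4.99 unstimulated, 2.56, 0.877, 1.89 and 0.704 with IL-1β, and 17.1, 13.3, 16.0 and 16.9 with IL-13. Some contractile genes also had several IL-13-raised members. TPM1, a tropomyosin, had 8 members of 30 peaks, all inside the gene, where 20 of 21 peaks past the floor had the signs of the set. TAGLN, or SM22, an actin-binding protein of smooth muscle, had 7 of 13, and all 8 peaks inside the gene had these signs. ACTG2, the enteric smooth muscle actin, had 4 of 9. At MIR145, a microRNA of smooth muscle, 6 of 15 peaks were members, all between 1.67 and 5.20 kb downstream, the strongest with group means of 22.7 unstimulated, 7.12 with IL-1β and 43.9 with IL-13. Peaks that follow each other along a gene share reads and neighbourhood, so they are not independent elements. The counts of signs include the members and use the libraries that chose them, at genes picked for their many members. The share of all peaks past the floor with these signs was not counted, so the counts are a description.

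**Figure D3:**
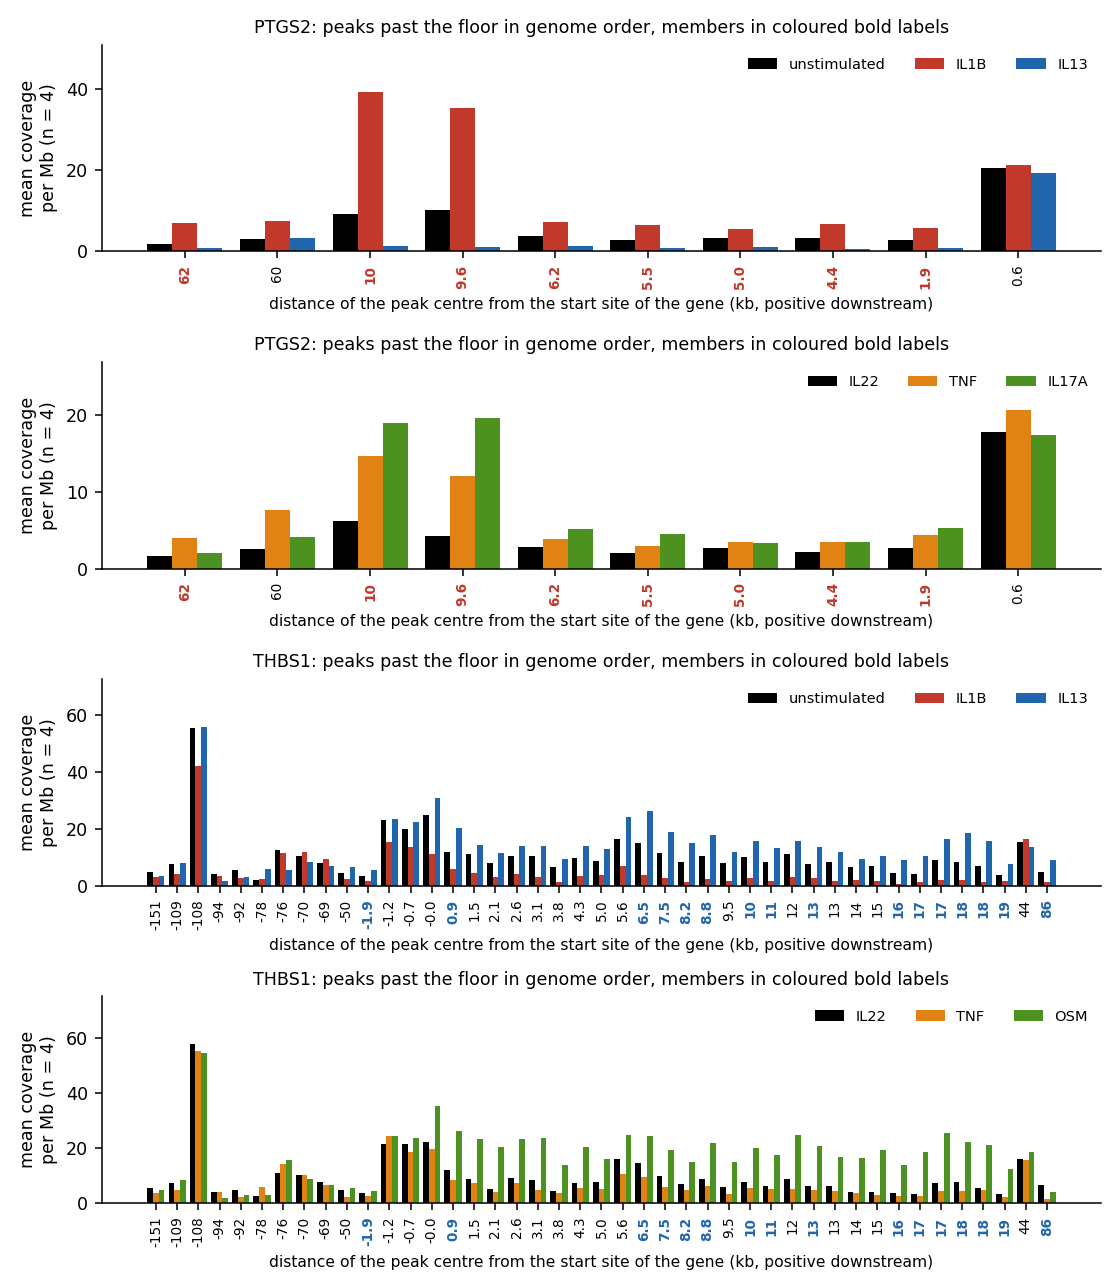
Mean coverage per Mb (y axis, linear from 0, n = 4 libraries, no error bars) of every peak past the floor at PTGS2 (upper 2 panels) and THBS1 (lower 2 panels), in genome order and marked by the distance of the peak centre from the gene's start site in kb, with members in coloured bold labels. The first panel of each gene shows unstimulated, IL1B and IL13 and the second IL22 with 2 other cytokines, and the PTGS2 start-site peak stands level in the first at 20.5, 21.4 and 19.2.

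The other cytokines were not used to choose the members and were tested. Each of TNF, OSM, TGF-β1, IFNγ, IFNα, IL-17A and IL-6 was compared with IL-22, a cytokine whose receptor is known mainly from epithelium, because comparing with the unstimulated libraries would have reused those that chose the members. The test was limma across all 44 libraries and 407176 peaks, and a peak was called where the Benjamini-Hochberg adjusted p was under 0.05. All 7 comparisons share the 4 IL-22 libraries, so their values stand side by side without being compared with each other. The balance of the sets averaged -0.47 in the IL-22 and -0.20 in the unstimulated libraries. A difference from IL-22 is thus not one from unstimulated cells, and this shift of the reference was not corrected for. Changes are log2 differences ± SE from that fit. Peaks past the floor are called more often than weak ones, so their share is given beside that of all tested peaks. Where IL-17A was the reference group in place of IL-22, no such share is given, so nothing is read from the size of those counts. The median difference from IL-17A over all tested peaks ran from -0.19 with OSM to 0.18 with TGF-β1.

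With TNF, 638 of the 1099 IL-1β-raised members (58.1%) rose and none fell, and 491 of the 1100 IL-13-raised members (44.6%) fell while 3 rose. Of all tested peaks 2.55% were raised and 1.63% lowered, and of those past the floor 6.66% and 6.94%. From IL-17A in place of IL-22, 409 IL-1β-raised members rose and 9 fell, and 269 IL-13-raised members fell while 22 rose. The median difference from IL-22 was 0.83 in the IL-1β-raised set and -0.67 in the IL-13-raised set, against -0.05 over all peaks past the floor. At limma's unadjusted p under 0.05, 1 IL-1β-raised member fell. Of the 29 named IL-1β-raised members 27 rose, including 10 of 10 of the IL-1 and NF-κB list. The CXCL8 member was at 29.5, 26.1, 17.6 and 21.2 per Mb with TNF and 2.37, 3.42, 2.99 and 3.32 with IL-22 (2.79 ± 0.30, limma adjusted p = 3.4e-15). All TNF libraries lay above all IL-22 libraries. The exceptions were LOC105375401 at 0.86 (limma adjusted p = 0.055) and SOCS3 at 0.30 (limma adjusted p = 0.69).

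Of the 22 named IL-13-raised members 12 fell with TNF. The WASF3 member was at 1.72, 1.78, 2.17 and 0.958 with TNF and 8.69, 8.84, 6.73 and 7.88 with IL-22 (-1.98 ± 0.25, limma adjusted p = 1.8e-11). CCL26 was at 3.82, 3.62, 4.15 and 4.58 against 8.59, 7.48, 11.9 and 11.4 (-1.14 ± 0.19, limma adjusted p = 2.4e-06). Both had no overlap. The other eotaxin with a member, CCL11, was at 7.32, 6.08, 7.87 and 5.04 against 6.71, 5.99, 6.17 and 3.23, which overlapped (0.29 ± 0.24, limma adjusted p = 0.69). The difference between the 2 genes was not tested. Of the 6 named matrix and contractile members COL1A1 (-0.55, limma adjusted p = 0.042) and COL5A1 (-1.09, limma adjusted p = 0.0054) fell. TAGLN (-0.25), MYH11 (-0.12), FN1 (-0.68) and THBS1 (-0.23) did not pass the test. No TPM1 or TAGLN member was called by limma with TNF, and at an unadjusted p under 0.05 there were 1 of 8 and 0 of 7.

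The largest TNF changes, chosen after their values were seen, were at FAM241A (9.89, 6.32, 8.15 and 11.7 with TNF against 0.757, 1.54, 1.23 and 0 with IL-22) and at DCN (33.4, 34.7, 29.5 and 30.7 against 5.21, 6.74, 2.78 and 2.37, 2.90 ± 0.21). DCN codes for decorin, a matrix proteoglycan, and this peak lies 36.9 kb from its start site. On the other side a member in AFAP1-AS1 was nearly closed with TNF, at 0, 0.201, 0.392 and 0.205 against 5.26, 4.21, 4.59 and 4.74. The 3 IL-13-raised members that rose with TNF were at JAZF1-AS1 (0.64), LOC101927142 (0.63) and C16orf47 (0.60), and each had been lower with IL-1β than unstimulated by the rule.

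With TGF-β1, a cytokine known for myofibroblast formation, 349 IL-1β-raised members rose and 10 fell, and 346 IL-13-raised members fell while 19 rose. The shares of all tested peaks were 3.39% raised and 2.07% lowered, and of those past the floor 4.29% and 10.1%. When IL-17A was the reference group, 231 IL-1β-raised members rose and 66 fell, and 163 IL-13-raised members fell while 62 rose. The median difference from IL-22 was 0.48 in the IL-1β-raised set and -0.47 in the IL-13-raised set, while the median over all tested peaks was 0.26 and that over peaks past the floor -0.13. The TBX3 member was at 36.7, 30.0, 31.3 and 31.3 with TGF-β1 and 7.02, 7.70, 7.66 and 9.13 with IL-22 (2.03 ± 0.19, limma adjusted p = 2.8e-18). IL11 was at 16.2, 10.1, 10.2 and 17.4 against 4.17, 4.29, 5.49 and 2.81 (1.62 ± 0.22, limma adjusted p = 1.7e-09). In neither did the groups overlap, and 13 of the 29 named members rose, among them AREG, GREM1, COL7A1 and LOXL2.

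Among IL-1β-raised members the chemokines were not called with TGF-β1, CXCL8 being at -0.69 (limma adjusted p = 0.15), CXCL2 at -0.09 and CXCL1 at 0.66. PTGS2 went the other way, as 2 of its 8 members fell. The one ranked first was at 3.00, 4.14, 2.11 and 5.61 with TGF-β1 against 6.87, 5.39, 6.05 and 6.30 with IL-22, which overlapped (-0.67 ± 0.22, limma adjusted p = 0.046). The other was at 1.03, 1.28, 0.963 and 0.741 against 2.66, 2.63, 2.07 and 3.32, which did not (-1.03).

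Of the named IL-13-raised members 7 fell with TGF-β1, including COL5A1 at -1.05, DPP4 at -0.60 and WASF3 at -1.27. The peak named for LOC105376480 fell most among the named, with 2.22, 4.44, 1.96 and 4.39 against 13.2, 13.0, 11.9 and 10.2 (-1.76 ± 0.22, limma adjusted p = 2.5e-11). At contractile loci calls went both ways or were absent. At MIR145, 3 of the 6 members rose, at SGCA, a sarcoglycan of muscle, 3 of 4, and at TAGLN 1 of 7, while at ACTG2 1 of 4 fell. At THBS1 and TPM1 none was called by limma, with medians of 0.07 and 0.02, and 4 of 16 and 1 of 8 members at an unadjusted p under 0.05.

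With IL-17A, which acts on stromal cells together with other cytokines, few peaks changed at all, 0.0678% raised and 0.0545% lowered. Of these few, the IL-1β-raised set held 37 raised and none lowered, and the IL-13-raised set 36 lowered and none raised, where peaks past the floor had 0.282% and 0.257%. At limma's unadjusted p under 0.05, 11 and 7 went against their set. The medians were 0.26 and -0.33. IL-17A was compared with no other reference group, and its balance (-0.01 to 0.33) overlapped that of the unstimulated libraries (-0.39 to 0.16). Without IL-17A replicate 2 the first set had 21 calls, and without IL-17A replicate 4 the second had 11. PTGS2 was the clearest locus. Its member at chr1:186671072-186671572 was at 17.1, 30.5, 17.9 and 12.8 with IL-17A and 3.75, 4.64, 4.34 and 4.18 with IL-22 (2.03 ± 0.22, limma adjusted p = 3.3e-13). TNFAIP3 also rose (0.81, limma adjusted p = 0.035), and so did 2 of 4 members at LIF and 2 of 6 upstream of BDKRB1, the bradykinin receptor gene. The largest falls, at NHLRC3 (-1.37) and TSHZ3 (-1.33), were of weak peaks with means of 2.44 and 2.79 per Mb with IL-22, and the next was at MIR1302-6 (-1.25), with 8.72, 6.05, 3.95 and 5.34 against 14.8, 15.5, 12.6 and 15.6.

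With IFNα, 61 IL-1β-raised members rose and 5 fell, and 90 IL-13-raised members fell while 8 rose, beside 0.418% raised and 0.341% lowered of all tested peaks and 1.26% and 1.50% of those past the floor. The medians were 0.18 and -0.25. Both directions turned with IL-17A in place of IL-22, to 20 raised and 59 lowered in the IL-1β-raised set (median -0.09) and 93 raised and 49 lowered in the IL-13-raised set (median 0.06). Without IL-22 replicate 4 the sets had 38 and 60 calls in all. The largest rise was at HIST2H2BE, a histone gene (2.25, with means of 6.12 and 1.08 per Mb), and the next at MX2, an interferon-induced antiviral GTPase (1.73), with 14.7, 11.1, 11.7 and 6.93 against 1.99, 3.33, 3.94 and 3.12 with IL-22. Of the named members IL11 (1.32), COL7A1 (0.74) and IRAK2 (0.52) rose, and WASF3 (-1.38), LINC00161 (-1.42) and LOC102724357 (-0.92) fell. The 5 IL-1β-raised members that fell were at LOC105370489, LINC01031, LINC00298, BCAT1 and TRIB1, at -1.09 to -0.83.

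With IFNγ the medians of the sets were near 0, at 0.03 and -0.08. In the IL-1β-raised set 55 rose and 15 fell, and in the IL-13-raised set 50 rose and 38 fell, beside 1.53% and 0.319% of all tested peaks and 2.68% and 1.38% of those past the floor. Against IL-17A the counts were 24 raised and 111 lowered (median -0.24), the opposite balance, and 173 raised and 15 lowered (median 0.25). Single members changed strongly. At IFI6, an interferon-induced gene, the IL-13-raised member was at 27.2, 28.4, 30.0 and 29.5 with IFNγ and 11.1, 7.82, 7.57 and 6.89 with IL-22. At GADD45A, a stress gene, it was at 11.4, 9.37, 10.9 and 11.5 against 3.78, 3.11, 3.24 and 0.813. A PTGS2 member 61.7 kb from the start site was at 7.06, 8.74, 8.89 and 5.92 against 1.35, 1.80, 1.94 and 1.51 (1.96 ± 0.30, limma adjusted p = 1.6e-07). None of these had overlapping groups.

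With OSM, a cytokine of the IL-6 family, calls went both ways in both sets. The IL-1β-raised set had 95 raised and 36 lowered (median 0.13) and the IL-13-raised set 79 raised and 81 lowered (median -0.06), beside 0.999% and 0.664% of all tested peaks and 3.74% and 2.48% of those past the floor. Compared with IL-17A the first set had 47 raised and 126 lowered (median -0.14) and the second 221 raised and 41 lowered (median 0.28), so the balance of calls turned. THBS1 stood out, with 14 of its 16 members raised and a median of 1.41. The member at chr15:39597341-39597841 was at 19.5, 19.6, 18.3 and 16.2 with OSM and 3.88, 2.43, 3.99 and 3.37 with IL-22 (2.29, limma adjusted p = 4.9e-13). IFNγ raised 7 and IFNα 1 of these 16 members, while TNF lowered 4. At EWSAT1 an IL-1β-raised member was at 17.7, 17.5, 18.6 and 16.2 with OSM against 4.02, 4.42, 5.07 and 3.83. The ZAP70 member fell to 2.64, 2.36, 3.20 and 3.43 with OSM, and was at 2.39, 1.27, 2.22 and 2.09 with TGF-β1, against 10.5, 16.3, 10.8 and 12.0 with IL-22. Among named IL-1β-raised members LOC105375401 (-1.74) and LINC01655 (-1.10) fell with OSM, and none rose.

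With IL-6, 11 IL-1β-raised members fell and none rose, and 3 IL-13-raised members rose and none fell, beside 0.00368% raised and 0.0179% lowered of all tested peaks and 0.0115% and 0.0829% of those past the floor. The medians from IL-22 were -0.25 and 0.21. Against IL-17A 192 fell in the first set and 168 rose in the second, with medians of -0.50 and 0.51. That comparison was not repeated without IL-6 replicate 4. The counts from IL-22 rested on this library, which stood apart. Without replicate 4 of IL-6 the counts were 0 lowered and 1 raised, with medians of -0.07 and 0.07. Limma's unadjusted p was then under 0.05 for 24 raised and 73 lowered IL-1β-raised members, against 11 and 282 with all libraries. In the IL-13-raised set it was so for 49 raised and 14 lowered members. The share of all peaks at that cut is not given, so nothing is read from these counts. The 3 members called raised with all libraries were at SGCA (5.52, 6.66, 6.55 and 8.51 with IL-6 against 3.60, 3.47, 3.12 and 1.13 with IL-22), CTGF (18.6, 17.7, 32.9 and 12.2 against 8.29, 8.83, 11.4 and 9.13) and ABCC1.

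**Figure D4:**
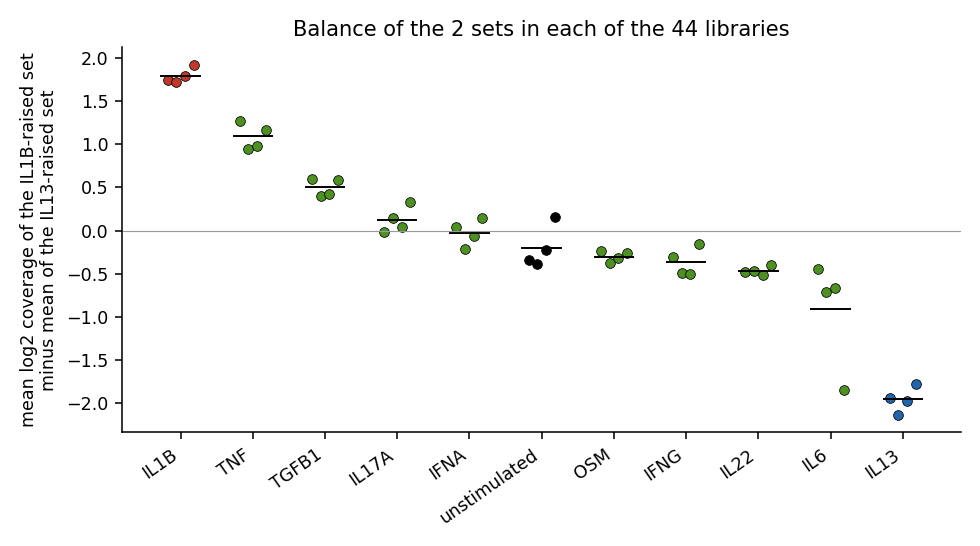
Balance of the sets (y axis, mean log2 coverage of the IL-1β-raised set minus that of the IL-13-raised set) in each of the 44 libraries by group, with lines at the group means. The IL1B libraries (1.72 to 1.92) and IL13 libraries (-2.14 to -1.78) lie apart because they chose the sets, TNF libraries sit at 0.95 to 1.27, TGFB1 at 0.40 to 0.60, and 1 IL6 library at -1.85.

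The balance of single libraries of the other groups was 0.95 to 1.27 with TNF, 0.40 to 0.60 with TGF-β1, -0.01 to 0.33 with IL-17A, -0.21 to 0.14 with IFNα, -0.38 to -0.24 with OSM, -0.50 to -0.15 with IFNγ and -0.51 to -0.40 with IL-22. TNF and TGF-β1 libraries thus did not overlap each other or IL-22, while the ranges of OSM and IFNγ overlapped.

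The peaks were searched for 14 short strings on both strands, which the rule did not use, and no test was made. AP-1 (TGACTCA) was in 55.0% of IL-1β-raised members and 11.0% of IL-13-raised members, with 24.4% of all peaks past the floor between them and 17.5% of all 407383 peaks. At least 2 AP-1 strings were in 154 IL-1β-raised and 5 IL-13-raised members. Of the strings commoner in the IL-13-raised set, CArG, TEAD and STAT6 had the largest ratios of shares. TEAD (CATTCCA) was in 23.8% against 9.46%, with 10.5% of peaks past the floor and 10.5% of all. STAT6 (TTC and GAA with 4 bases between) was in 24.6% against 11.6%, with 12.6% and 14.4%. CArG was in 9.64% against 2.64%, with 3.16% and 3.20%. One or more of these 3 was in 48.5% of IL-13-raised and 22.0% of IL-1β-raised members.

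Of the others, the string GAS (TTC and GAA with 3 bases between, so that it shares both ends with the STAT6 string) was in 14.7% of IL-1β-raised and 23.6% of IL-13-raised members, beside 14.8% of peaks past the floor and 17.2% of all. The E-box CAGCTG was in 23.3% and 39.8%, beside 30.9% and 28.4%, and the string AGATAAG of GATA factors in 6.10% and 10.4%, beside 5.26% and 6.17%. NF-κB was in 13.1% and 7.18%, beside 15.8% and 13.0%, so that neither set exceeded the peaks past the floor. Those peaks hold more promoters and more GC than the sets, which was not held constant for any string. Of the NF-κB strings, 40.1% in IL-1β-raised members lay within 50 bases of the peak centre. Overlapping matches were each counted here, so a single site can count more than once. The share was 23.1% in IL-13-raised members and 25.0% in peaks past the floor. ETS (CCGGAAG) was rare in both, at 1.73% and 1.91%, beside 6.66% and 3.28%. RUNX (TGTGGTT) was in 16.2% and 13.8%, beside 10.4% and 10.9%, and GRE (ACA and TGT with 3 bases between) in 18.0% and 18.9%, beside 12.2% and 15.0%. FOX (TGTTTAC) was in 10.5% and 13.0%, beside 9.08% and 8.37%. ISRE (GAAA and GAAA with 2 bases between) was in 5.91% and 8.46%, beside 7.16% and 9.11%, and C/EBP (TTGCGCAA or TTGCACAA) in 3.64% and 2.27%, beside 2.64% and 2.53%.

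Members with a string were set beside those without it. Of the IL-1β-raised members, 120 of 144 with the NF-κB string rose with TNF (median 1.23) and 518 of 955 without it (median 0.79). With the AP-1 string the TNF medians were 0.81 with and 0.86 without, and the TGF-β1 medians 0.55 and 0.40. Of the IL-13-raised members, 17 of 93 with the ISRE string rose with IFNγ and 33 of 1007 without it. For the RUNX string and OSM, 37 of 178 with the string and 58 of 921 without it were raised in the IL-1β-raised set. In the other set these counts were 26 of 152 and 53 of 948. These splits are descriptions within each set, and base composition and coverage were not held constant between members with and without a string.

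**Figure D5:**
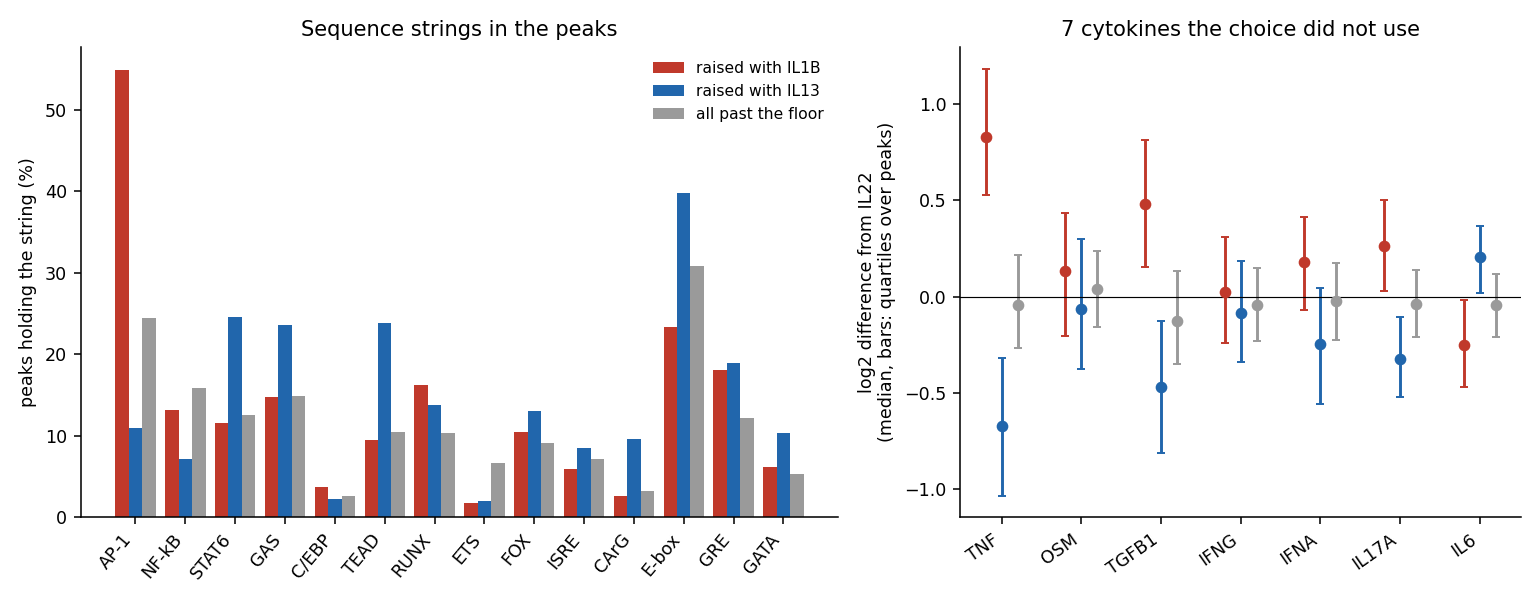
Left, share of peaks holding each of the 14 strings (y axis, percent, linear from 0) in the IL-1β-raised set (red), the IL-13-raised set (blue) and all peaks past the floor (grey). Right, median log2 difference from IL22 for 7 cytokines, with bars for the quartiles over peaks, which lie at 0.53 and 1.18 around the TNF median of 0.83 in the IL-1β-raised set.

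Both sets lay away from promoters. Of the IL-1β-raised members 1.91% and of the IL-13-raised members 2.0% had the deposited class promoter, against 18.6% of all peaks past the floor. The distal class held 44.0% and 32.6%, against 26.3%, and the intronic class 51.2% and 58.6%, against 45.4%. The median distance to a protein-coding start site was 35.0 kb and 24.2 kb, against 8.79 kb. Median GC content was 43.6% and 42.2%, against 50% of peaks past the floor. Of the 21 promoter-class IL-1β-raised members, those at SLCO2B1, an organic anion transporter, and FAM71E2 rose with TNF by 1.62 and 1.51 on the log2 scale. Of the 22 in the IL-13-raised set, those at SPG21, LMCD1 and MRGPRF fell, at -1.12, -1.01 and -0.70, while PDHB at -0.52 and TPM2 at -0.24 did not pass the test.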

How the data were processed

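The authors aligned paired-end reads to hg38 with the ENCODE ATAC-seq pipeline, and the submitters' processing notes name MACS2 as a tool. The deposited table holds coverage, a signal summed over the bases of each peak, for 407383 peaks of 500 bases in 44 libraries, with no scaling for depth. The study describes fixed-width peaks of 500 bases, called with MACS2 and merged in ArchR, for its single-cell ATAC-seq. Whether the peaks of this bulk table are that set is not given in the sources used here. A partly overlapping read adds fewer than its 75 bases, so coverage is not a read count, and it follows whole reads rather than the cut site. No library held the values of another. All peaks lay inside their hg38 chromosomes, and 88.5% of promoter-class peaks lay within 2 kb of a protein-coding start site of GENCODE v44 against 10.9% of the others. Sequences were read taking the deposited start as counted from 0, which could be wrong by 1 base.

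Members were found on coverage divided by library totals (Python 3.11.15). For the tests, coverage was also divided by a factor for library composition (log ratios to the geometric mean library, averaged after trimming 30% of ratios and 5% of means at each end). Then 0.5 was added and log2 taken, so changes of low peaks are understated. Peaks whose mean coverage, before 0.5 was added, had a log2 of -3 or below were left out (207). The remaining 407176 were fitted with limma 3.58.1 in R 4.3.3 with group as the only term and a mean-variance trend. P-values were Benjamini-Hochberg adjusted over all tested peaks, with no correction across the 7 contrasts. The script was tested on simulated data. Printed coverage values are without that factor. The cytokines were compared with IL-22 because that group had few calls in an earlier analysis of these data.

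Named members were, in each set, the first 10 by the smaller of the 2 absolute differences, at most 1 for each gene, and for each gene of 8 lists its member with the largest such value. Genes are those of the deposited peak names. The members, lists and comparisons were chosen with earlier results of these data known. The loci with most members, the largest changes, the members that went against their set and the splits by string were named after their values were seen. Some members are not reported here. Alternatives were another pseudocount, floors, thresholds, scalings, filters and reference group, a replicate block, and leaving out each library.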

Additional observations from a re-analysis of the deposited data

Results flagged for a closer look

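A library was picked out where it stood far from the other 3 of its group (Dixon's 95% criterion), among 158 groups of named members and library balances, and 11 did. Chance picks out about 1 in 20 groups. In the IL-1β-raised set these were ARID5A in unstimulated replicate 3 (8.13 per Mb, others 5.77 to 6.15), IL4R in unstimulated replicate 4 (10.8, others 7.91 to 8.13), IL33 in IL-13 replicate 3 (0.488, others 1.37 to 1.45) and LOXL2 in IL-13 replicate 3 (2.05, others 3.48 to 3.60). In the IL-13-raised set, IL-13 libraries stood apart at WASF3 (replicate 1 at 23.3, others 16.0 to 16.8) and CASC18 (replicate 2 at 12.3, others 7.80 to 8.32). Unstimulated libraries did so at LOC105376480 (replicate 2 at 11.8, others 7.82 to 8.44), MAP9 (replicate 2 at 6.08, others 2.21 to 2.68) and COL1A1 (replicate 1 at 16.0, others 10.4 to 11.0). IL-1β libraries did so at CCL26 (replicate 1 at 5.47, others 4.04 to 4.18) and DPP4 (replicate 3 at 13.0, others 8.14 to 8.44).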

How the results depend on the processing

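The number of members depended on the rule. In the IL-1β-raised set it was 348 with a pseudocount of 2, 2214 with a floor of 1 per Mb, 152 with a floor of 10 and 374 with a threshold of 0.8, and in the IL-13-raised set 469 with that pseudocount, 213 with a floor of 10 and 379 at 0.8. Leaving out 1 library gave 1012 to 1268 and 945 to 1182 members. Membership itself changed more than these counts. Without unstimulated replicate 1 the IL-1β-raised set again held 1099 peaks, but 891 of them (81.1%) were shared with the main set. The fewest stayed without IL-13 replicate 2 in the IL-1β-raised set (78.2%) and without unstimulated replicate 4 in the IL-13-raised set (75.5%). With IL-17A as the reference group in place of IL-22, the IL-1β-raised set had 418 calls with TNF, 135 with IFNγ and 192 with IL-6, and the IL-13-raised set 291, 188 and 168, with 262 for OSM and 225 for TGF-β1. The balance of raised and lowered calls turned there for IFNα and OSM in both sets and for IFNγ in the IL-1β-raised set. There PTGS2 had a TNF difference of -0.32 and LOC102724357 a TGF-β1 difference of 0.21, opposite to those from IL-22. IL-6 calls in the IL-1β-raised set were 3 with a pseudocount of 2, 5 with a mean coverage of at least 1 and 6 with no filter.

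Leaving out each library gave, in the IL-1β-raised set, 547 to 601 calls with TNF, 89 to 115 with OSM, 282 to 316 with TGF-β1, 49 to 62 with IFNγ, 38 to 59 with IFNα, 21 to 30 with IL-17A and 0 to 38 with IL-6. In the IL-13-raised set the ranges were 423 to 458, 111 to 138, 295 to 324, 61 to 73, 60 to 88, 11 to 44 and 1 to 8. IFNα calls in the IL-1β-raised set were 38 without IL-22 replicate 4, 41 without IFNα replicate 1 and 42 without IFNα replicate 4, and in the other set 60 without IL-22 replicate 4. IL-17A calls in the IL-1β-raised set were 21 without IL-17A replicate 2, 22 without IL-22 replicate 4 and 23 without IL-17A replicate 4, and in the other set 11 without IL-17A replicate 4, 15, 17 and 22 without IL-22 replicates 3, 1 and 4, and 20 without IL-17A replicate 2. IL-6 calls in the IL-1β-raised set were 35, 38, 35 and 0 without IL-6 replicates 1 to 4 in turn and 4, 7, 5 and 3 without IL-22 replicates 1 to 4, and in the other set 8, 5, 3 and 1 and then 2, 1, 1 and 1. The causes were not tested.

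The replicate numbers are shared across groups, and with the replicate block TNF calls were 639 and 494. Libraries of the same number correlated at -0.02 to 0.02 (28 pairs) and 10 of 28 correlated best with their own number, so the number did not pair them, and the block moved no count of calls by over 1.5 times. Library totals or median-of-ratios factors in place of the composition factor turned no called direction of a named member. Depth limits the weak peaks, about 30 reads per library at the median.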
